A study of Mus musculus with 4 samples.

Results

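The p53 set described here is Trp53, the mouse gene of the transcription factor p53, with 9 of its direct target genes, Mdm2, Ccng1, Eda2r, Cdkn1a, Bax, Phlda3, Trp53inp1, Sesn2 and Zmat3. The 10 genes were chosen by name and looked up by symbol among the 53379 genes of a raw count table. All 10 were found and all 10 were among the 18838 genes that had enough counts to be tested. The table holds cortical astrocyte cultures of 2 genotypes, with 2 samples labelled Npas3-/- and 2 samples labelled wild type (WT), all of the C57BL/6 strain. Npas3 encodes a neural bHLH-PAS transcription factor, and the comparison asks which transcripts differ when it is disrupted. Per the labels, cortex was taken at postnatal day 0, shaking removed loosely attached cells, and RNA was taken at day 14 in vitro from cells grown in serum. The labels give no allele beyond the genotype, and nothing in them ties a sample to its own animal or culture. P-values therefore measure only how far these 4 samples scatter, and that scatter may be technical.

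p53 is made continuously and destroyed continuously. Its target Mdm2 encodes the ubiquitin ligase that marks p53 for degradation, so the pair forms a feedback loop, and much of p53's regulation is by protein stability and modification, which RNA counts do not show. When damage, growth signals or culture stress stabilise p53, it binds paired decamers in DNA and raises targets that halt the cell cycle, repair DNA, retune metabolism or start apoptosis. In cultured astrocytes p53 and p21 are known as brakes on proliferation.

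Total counts were 86932708 and 85897778 in Npas3-/- libraries 1 and 2, and 82965565 and 85688472 in WT libraries 1 and 2. Npas3 itself had 2055 and 1386 counts in the Npas3-/- libraries, against 5129 and 8739 in the WT libraries, so transcript was still counted in the Npas3-/- libraries, and the counts do not show which exons remain. Values below are CPM, counts scaled to a common library size, with library sizes adjusted by the trimmed mean of M-values (TMM). A log2 fold change is Npas3-/- over WT, so a positive value means higher in Npas3-/-. "Rose" and "fell" are used for a p below 0.05 after Benjamini-Hochberg adjustment over all tested genes, by the quasi-likelihood test of edgeR. The libraries also differed in the base composition of what they sampled. The count-weighted GC content of transcripts was 53.2% and 53.6% in Npas3-/- and 51.5% and 50.2% in WT, and each result is therefore also given from a fit that removes trends with transcript GC content and length, called the corrected fit. That fit moved the median log2 fold change of all tested genes by 0.16, to 0.088 from -0.070, and a real effect of genotype that ran along GC content or length would be lost with it. Npas3 itself fell on counts, by edgeR (log2 fold change -1.82, adjusted p = 0.0181), and did not pass in the corrected fit, at -0.57 (adjusted p = 0.154 by edgeR). Leaving out each library, with and without the correction, gave -2.14 to -0.28 for Npas3. Summed astrocyte markers were 4880 CPM in both Npas3-/- libraries and 3080 to 3900 CPM in WT, with Gfap and Aldoc the most abundant in Npas3-/- and Slc1a3 in WT. Of the 9 astrocyte markers Gfap (log2 fold change 1.57) and Aldoc (2.22) rose and Aqp4 (-4.01), Gja1 (-2.58) and Slc1a2 (-2.48) fell, with a median of -0.25, and all but Slc1a2 also passed in the corrected fit. S100b, another astrocyte marker, was close to absent, with 12 and 61 counts in Npas3-/- and 36 and 66 in WT. Summed markers of the oligodendrocyte lineage, led by Olig1, were 1430 to 1740 CPM in Npas3-/- and 1270 to 1380 CPM in WT, with Mog at 0 in all 4 libraries. Fibroblast markers, led by Col1a2, summed to 289 to 345 and 331 to 396 CPM, neuronal markers, led by Stmn2, to 197 to 198 and 161 to 306 CPM, microglial markers, led by Tmem119, to 2.62 to 3.70 and 2.19 to 2.78 CPM, and endothelial markers, led by Flt1, to 11.9 to 17 and 12 to 14.4 CPM, in Npas3-/- and WT in that order. The neuronal sum is mostly Stmn2, which did not pass, while Map2 (log2 fold change -3.70) and Syt1 (-2.45) fell. Tubb3 lay the other way, at 65.2 and 79.6 CPM in Npas3-/- and 45.9 and 21.9 CPM in WT. Its log2 fold change of 1.09 did not pass. Rbfox3 and Snap25 had too few counts to be tested. Both were at 0 counts in both Npas3-/- libraries, against 4 and 25 counts for Rbfox3 and 5 and 35 for Snap25 in WT. Map2 passed in the corrected fit as well, at -2.63. The part of these cells in the results was not tested, and in bulk cultures fewer cells of a type and less RNA per cell cannot be told apart.

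Letters that match the p53 consensus near the starts of these genes are shown first. The search reads sequence and measures no binding. RefSeq promoter windows on GRCm38.p6, from 250 bases before a gene's start to 50 after it, were available for 8 of the 10 genes. They were searched on both strands for the p53 consensus decamer, and for a pair of decamers with a spacer of 0 or 1 bases and at most 2 letters off the consensus. No letter off was allowed at the core C and G of either decamer in a pair. A pair was found for Ccng1, Cdkn1a and Bax. Over all 32851 promoter windows of this length, 0.682% held such a pair and 8.36% held at least 1 exact decamer. Trp53 and Mdm2 had 1 exact decamer each and no pair, while Eda2r, Phlda3 and Sesn2 had neither in this window. Known p53 sites outside the window, such as those in introns, are not seen by this search. The 250 bases upstream of the start are printed 5′ to 3′ on the gene's strand, with the 2 decamers in capitals, because these are the 3 genes whose paired site lies in the window.
Cdkn1a, chr17:29090729-29090978, plus strand: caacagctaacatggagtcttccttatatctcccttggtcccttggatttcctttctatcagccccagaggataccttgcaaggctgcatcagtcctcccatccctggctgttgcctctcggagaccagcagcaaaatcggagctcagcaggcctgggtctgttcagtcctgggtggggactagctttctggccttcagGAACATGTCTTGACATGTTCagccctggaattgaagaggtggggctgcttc
Ccng1, chr11:40755287-40755536, minus strand: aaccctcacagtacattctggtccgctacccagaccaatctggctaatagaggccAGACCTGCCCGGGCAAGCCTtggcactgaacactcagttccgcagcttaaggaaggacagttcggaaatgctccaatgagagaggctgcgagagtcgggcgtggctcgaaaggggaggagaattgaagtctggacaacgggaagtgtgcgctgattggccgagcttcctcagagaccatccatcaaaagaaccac
Bax, chr7:45466899-45467148, minus strand: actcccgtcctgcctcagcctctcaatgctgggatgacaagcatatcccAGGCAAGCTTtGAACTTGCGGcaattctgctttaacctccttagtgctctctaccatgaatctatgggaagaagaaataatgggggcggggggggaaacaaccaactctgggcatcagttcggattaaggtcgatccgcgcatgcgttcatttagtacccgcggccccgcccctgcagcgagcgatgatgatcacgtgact
The Cdkn1a pair, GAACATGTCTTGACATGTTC at chr17:29090928-29090947, departs from the consensus at 1 letter and begins 51 bases before the upstream of the gene's 2 RefSeq starts in the table. The Ccng1 pair, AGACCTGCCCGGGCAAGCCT at chr11:40755462-40755481, departs at 1 letter and begins 195 bases before the start. The Bax pair, at chr7:45467079-45467099, departs at 2 letters, has a spacer of 1 base and begins 201 bases before the start. These 3 genes did not move alike: as given below, Ccng1 fell, Bax rose and Cdkn1a did not pass.

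The set divided evenly by direction. In all 10 genes the 2 genotypes did not overlap, with 5 higher and 5 lower in both Npas3-/- libraries. Among all tested genes 35.7% were higher without overlap and 40.1% lower. Phlda3 and Bax rose, and Mdm2, Ccng1, Eda2r, Trp53inp1 and Zmat3 fell, while Trp53, Cdkn1a and Sesn2 did not pass. The calls are 2 of 10 higher against a background of 11.6% of all tested genes, and 5 of 10 lower against 21.5%, or 7 of 10 in either direction against 33.1%. The set was chosen with earlier results of these data known, so these shares are a description and cannot serve as a test. The median log2 fold change of the set was -0.13, against -0.070 over all tested genes. In the corrected fit 0 of 10 rose and 2 fell, Mdm2 and Eda2r, where 5.71% of all tested genes rose, 3.08% fell and 8.79% were called in either direction. The corrected median was -0.088, against 0.088 over all tested genes. Over all genes the correction turned the balance of calls, with 1076 higher and 580 lower in the corrected fit and 2188 higher and 4044 lower without it. Without the second Npas3-/- library edgeR called 0 of the 10 genes and 0 of all genes, though 5 of the 10 and 5728 of all genes had an unadjusted p under 0.05. DESeq2 on the same 3 libraries called 1 of the 10 higher and 4 lower.

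**Figure D1:**
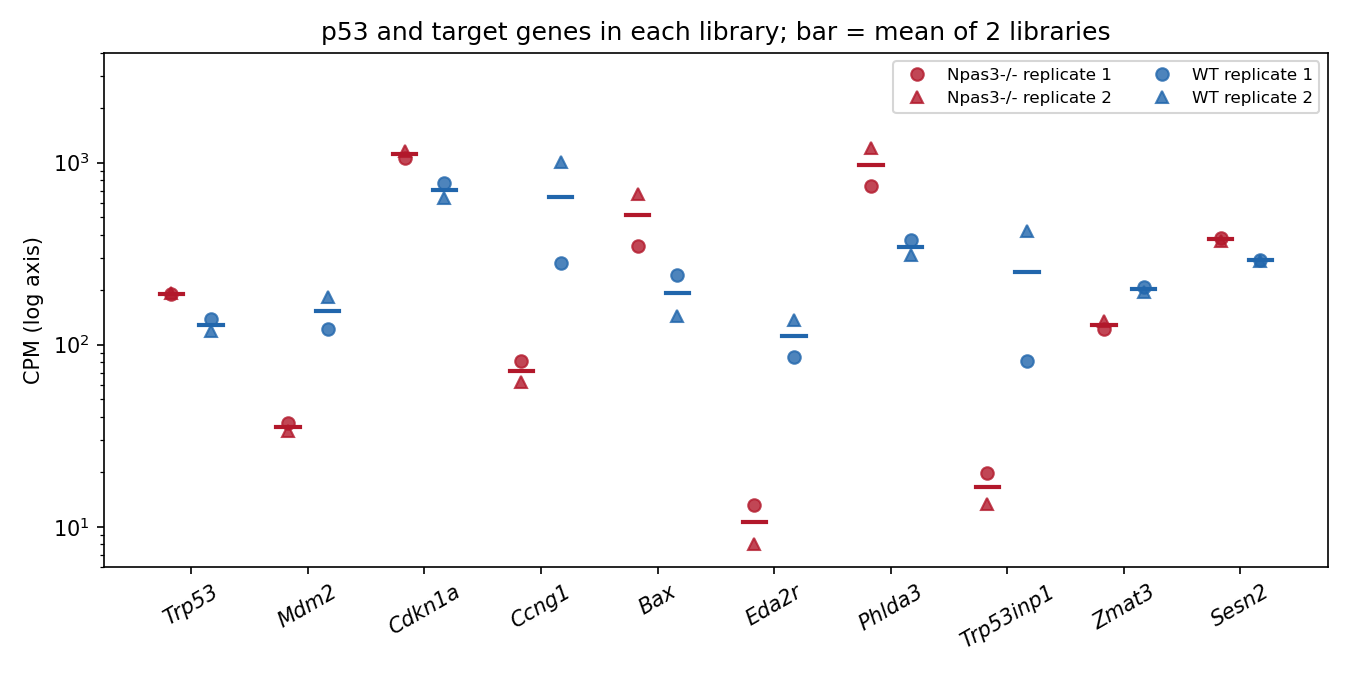
CPM on a log axis for the 10 genes of the p53 set, with Npas3-/- libraries in red left of WT libraries in blue, circles for replicate 1, triangles for replicate 2 and bars for the mean of 2 libraries. No gene overlaps between genotypes, and the widest gap between libraries of a genotype is that of Trp53inp1 in WT, at 81.1 and 421.8 CPM.

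The loop's 2 genes lay on opposite sides. Trp53 (ENSMUSG00000059552.13, mm10 chromosome 11, 69580359 to 69591873, plus strand) had 189 and 191 CPM in the Npas3-/- libraries, against 139 and 119 CPM in the WT libraries. Both Npas3-/- libraries were above both WT libraries, with means of 190.1 ± 1.72 and 128.7 ± 14.3 CPM (SD, n = 2 each). The log2 fold change of 0.56 (SE 0.19) did not pass, at an adjusted p of 0.0719 by edgeR. In the corrected fit it was -0.019 (SE 0.15, adjusted p = 0.945 by edgeR). The transcript is 54.0% GC. Its processed pseudogene Trp53-ps was at 0 counts in all 4 libraries.

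Mdm2 (ENSMUSG00000020184.15, chromosome 10, 117688875 to 117710758, minus strand), the ligase and feedback inhibitor, had 37.1 and 33.5 CPM in the Npas3-/- libraries, against 122 and 184 CPM in the WT libraries. The highest Npas3-/- value was below the lowest WT value by a wide margin, and Mdm2 was 4.33-fold lower in Npas3-/-. Its log2 fold change was -2.11 (SE 0.27; adjusted p = 0.0130 by edgeR). It was 1 of the 2 genes of the set that passed in the corrected fit, at -1.05 (SE 0.20; adjusted p = 0.0383 by edgeR), with a transcript of 46.2% GC. The corrected call was lost without Npas3-/- library 1 (log2 fold change -1.06) and without Npas3-/- library 2 (-1.01). In those 2 fits every corrected edgeR call was lost, so that loss is not particular to Mdm2. The call was also lost without WT library 2 (-0.81) and kept without WT library 1 (-1.26). The sign was negative in each of these fits.

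The cell cycle targets differed from each other. Cdkn1a (ENSMUSG00000023067.13, chromosome 17, 29090976 to 29100727, plus strand) encodes p21, the inhibitor of cyclin-dependent kinases that carries much of the p53 arrest. It had 1060 and 1165 CPM in the Npas3-/- libraries, against 775 and 637 CPM in the WT libraries. The genotypes were apart in the same direction as for Trp53, but the log2 fold change of 0.66 (SE 0.22) did not pass, at an adjusted p of 0.0689 by edgeR. In the corrected fit it was 0.088 (SE 0.15; adjusted p = 0.741 by edgeR), which is the median of all tested genes in that fit. By DESeq2 both Cdkn1a and Trp53 passed without the correction, at adjusted p of 0.0208 and 0.0420.

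Ccng1 (ENSMUSG00000020326.7, chromosome 11, 40748552 to 40755311, minus strand) encodes cyclin G1, which is known to recruit a phosphatase to Mdm2. It had 81.1 and 62.3 CPM in the Npas3-/- libraries, against 280.5 and 1007 CPM in the WT libraries. Ccng1 fell 8.98-fold (log2 fold change -3.17, SE 0.63; adjusted p = 0.0223 by edgeR), and the WT libraries themselves differed 3.59-fold. Without WT library 2 the log2 fold change was -1.98 and without WT library 1 it was -3.83, both past the threshold, while without Npas3-/- library 1 it was -3.37 (adjusted p = 0.0589 by edgeR) and without Npas3-/- library 2 -2.98 (adjusted p = 0.103 by edgeR). The corrected value was -0.90 (SE 0.31; adjusted p = 0.119 by edgeR) for this transcript of 40.8% GC. It passed there without WT library 1, at -1.26 (adjusted p = 0.0213 by edgeR).

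Of 29 genes on which p21 acts or which lie downstream of it (cyclins, their kinases and inhibitors, the pocket proteins and the DREAM complex), all tested, 1 rose, the cyclin gene Ccnd3 (log2 fold change 1.79), and 12 fell, with a median of -0.15, where 11.6% of all tested genes rose and 21.5% fell. Lin54 and Lin9, DNA-binding and core subunits of DREAM, fell to 0.852 ± 0.283 and 1.19 ± 0.284 CPM in Npas3-/-, against 12.3 ± 1.89 and 9.01 ± 1.46 CPM in WT. The pocket protein gene Rbl1 fell to 3.20 ± 0.431 CPM in Npas3-/-, against 21.7 ± 3.94 CPM in WT, and the kinase gene Cdk6 to 24.2 ± 7.19 CPM, against 103 ± 3.54 CPM. Cyclin D1 (Ccnd1), the most abundant of the list, had 4463 ± 312 CPM in Npas3-/- and 3638 ± 1159 CPM in WT and did not pass. In the corrected fit 3 rose and 0 fell, at a median of -0.099, beside 5.71% and 3.08% of all tested genes. The 3 were Cdk1 (1.33), Birc5 (1.51) and Cdkn1b (1.30), a mitotic kinase, a survivin gene of dividing cells and a p21 relative, named after their values were seen. None of the 3 had passed without the correction, where their values were 0.44, 0.72 and -0.63.

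Among the death-linked targets, Bax (ENSMUSG00000003873.11, chromosome 7, 45461697 to 45466898, minus strand), the pore-forming effector of the mitochondrial pathway, had 349.9 and 676 CPM in the Npas3-/- libraries, against 241 and 144 CPM in the WT libraries. It rose 2.66-fold (log2 fold change 1.41, SE 0.41; adjusted p = 0.0493 by edgeR), close to the threshold. The 2 Npas3-/- libraries differed 1.93-fold. Without Npas3-/- library 2 the log2 fold change was 0.87 (adjusted p = 0.215 by edgeR), without WT library 2 it was 1.07 (adjusted p = 0.135), and in the corrected fit 0.36 (SE 0.22; adjusted p = 0.313 by edgeR). The Bax transcript, at 63.5% GC, is the richest of the set. It shares 192 exon bases with the read-through gene Gm45808, which had at most 9 counts in a library.

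Eda2r (ENSMUSG00000034457.10, chromosome X, 97333840 to 97377216, minus strand), a tumour necrosis factor family receptor for an ectodysplasin isoform, had 13.2 and 8.04 CPM in the Npas3-/- libraries, against 85.5 and 137 CPM in the WT libraries. The genotypes were far apart, and Eda2r fell 10.5-fold (log2 fold change -3.39, SE 0.38; adjusted p = 0.0130 by edgeR). With Mdm2 it was the other gene that passed in the corrected fit, at -1.11 (SE 0.20; adjusted p = 0.0339 by edgeR), for a transcript of 40.9% GC. That corrected call was lost without Npas3-/- library 1 (-1.33) and without Npas3-/- library 2 (-0.98), where every corrected edgeR call was lost. It was also lost without WT library 1 (-0.93) and kept without WT library 2 (-1.27). Of 5 genes of ectodysplasin signalling, not all of them specific to this receptor, 0 rose and 2 fell, beside 11.6% and 21.5% of all tested genes. The 2 were the adaptor genes Traf6 and Traf3, at 6.23 ± 1.80 and 29.9 ± 13.6 CPM in Npas3-/-, against 25.7 ± 3.65 and 122 ± 69.5 CPM in WT. The ligand gene Eda had 16.5 ± 5.38 CPM in Npas3-/- and 8.03 ± 6.05 CPM in WT, and counts per gene do not separate its isoforms. Edaradd, an adaptor gene not specific to Eda2r, had 0.0779 ± 0.110 and 0.735 ± 0.577 CPM. Neither Eda nor Edaradd passed. The list's median log2 fold change was -2.03. In the corrected fit 0 of 5 were called, beside 8.79% of all tested genes, with a median of -0.45. Corrected adjusted p by edgeR was 0.0700 for Traf3 and 0.218 for Traf6.

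Phlda3 (ENSMUSG00000041801.5, chromosome 1, 135766119 to 135769136, plus strand), whose small PH-domain protein is known to restrain Akt at membranes, had 740.2 and 1198 CPM in the Npas3-/- libraries, against 377 and 311 CPM in the WT libraries. It rose 2.82-fold (log2 fold change 1.495, SE 0.30; adjusted p = 0.0231 by edgeR). The corrected log2 fold change was 0.48 (SE 0.16; adjusted p = 0.113 by edgeR), for a transcript of 62.6% GC. Without Npas3-/- library 2 and without the correction it was 1.11 (adjusted p = 0.111 by edgeR).

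Trp53inp1 (ENSMUSG00000028211.11, chromosome 4, 11156431 to 11174379, plus strand), a nuclear stress protein that promotes p53 phosphorylation and autophagy, had 19.7 and 13.4 CPM in the Npas3-/- libraries, against 81.1 and 421.8 CPM in the WT libraries. It had the largest fitted difference of the 10 genes, 15.2-fold lower in Npas3-/- (log2 fold change -3.93, SE 0.82; adjusted p = 0.0241 by edgeR), and also the largest gap within a genotype, 5.20-fold between the WT libraries. Without WT library 2 the log2 fold change was -2.31 and without WT library 1 -4.69, both past the threshold. Without Npas3-/- library 1 the adjusted p was 0.0601 and without Npas3-/- library 2 it was 0.108, both by edgeR. With the correction the value was -1.06 (SE 0.36; adjusted p = 0.115 by edgeR), and without WT library 1 it passed there at -1.48 (adjusted p = 0.0183 by edgeR). Its transcript, at 38.8% GC, is the poorest of the set.

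Of 17 relatives and partners of Bax, 3 rose and 2 fell, with a median log2 fold change of 0.33, where 11.6% of all tested genes rose and 21.5% fell. Bak1, the other pore-forming effector, rose to 137 ± 34.0 CPM in Npas3-/-, against 54.3 ± 3.54 CPM in WT, and Diablo, an antagonist of caspase inhibitors, to 96.0 ± 5.54 CPM, against 52.3 ± 1.14 CPM. The other that rose was Bad, a BH3-only gene (log2 fold change 1.56). The survival gene Bcl2 fell to 15.9 ± 2.91 CPM in Npas3-/-, against 42.8 ± 2.92 CPM in WT. Mcl1, the most abundant, had 329.8 ± 25.03 CPM in Npas3-/- and 313 ± 20.4 CPM in WT and did not pass. After the correction 2 rose and 0 fell, at a median of 0.43: Diablo (2.30), and Cycs (1.87), the cytochrome c gene, named after its values were seen. Over all tested genes 5.71% rose and 3.08% fell in the corrected fit, with a median of 0.088. Bcl2 was at 0.14 in that fit and did not pass. Diablo shares exon bases with B3gnt4 and Gm49027, so its counts are uncertain.

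The last pair of targets are stress and RNA regulators. Zmat3 (ENSMUSG00000027663.12, chromosome 3, 32334792 to 32366014, minus strand), a zinc finger RNA-binding protein gene known for effects on splicing and transcript stability, had 122 and 135 CPM in the Npas3-/- libraries, against 207 and 196 CPM in the WT libraries. It fell 1.57-fold (log2 fold change -0.65, SE 0.19; adjusted p = 0.0485 by edgeR), with libraries of a genotype close together. The call was lost when any single library was left out, though without Npas3-/- library 2 every edgeR call was lost. The log2 fold changes in those fits stayed about as large, at -0.58, -0.72, -0.63 and -0.71. With the correction the sign turned, to 0.68 (SE 0.24; adjusted p = 0.129 by edgeR). Its longest coding transcript has 7797 bases, the longest of the set, at 47.6% GC.

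Sesn2 (ENSMUSG00000028893.8, chromosome 4, 132492032 to 132510501, minus strand), the stress-induced sestrin that senses leucine and restrains mTORC1 through the GATOR complexes, had 387 and 370.0 CPM in the Npas3-/- libraries, against 293 and 288 CPM in the WT libraries. The libraries of a genotype lay close together and the genotypes did not overlap, but the log2 fold change of 0.38 (SE 0.19) did not pass, at an adjusted p of 0.164 by edgeR. After the correction it was -0.16 (SE 0.17; adjusted p = 0.587 by edgeR). Among 12 sestrin, GATOR and mTORC1 genes 3 rose and 3 fell, with a median log2 fold change of -0.24, where 11.6% of all tested genes rose and 21.5% fell. Wdr24 and Sec13, of GATOR2, rose to 53.6 ± 0.0840 and 219.9 ± 18.3 CPM in Npas3-/-, against 28.3 ± 0.489 and 118 ± 30.5 CPM in WT, and the other was the GATOR1 gene Nprl2 (log2 fold change 1.02). Seh1l and Mios, also of GATOR2, fell to 14.1 ± 3.27 and 2.42 ± 0.830 CPM in Npas3-/-, against 46.3 ± 7.32 and 11.5 ± 3.54 CPM in WT. The sestrin Sesn3 fell to 39.7 ± 10.6 CPM in Npas3-/-, against 160.0 ± 76.1 CPM in WT, and Sesn1, also a p53 target, did not pass at -0.24. With the correction 0 of the 12 were called by edgeR, beside 8.79% of all tested genes. The corrected median was 0.18, with Sesn3 at 0.0010 and Seh1l at 0.21.

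**Figure D2:**
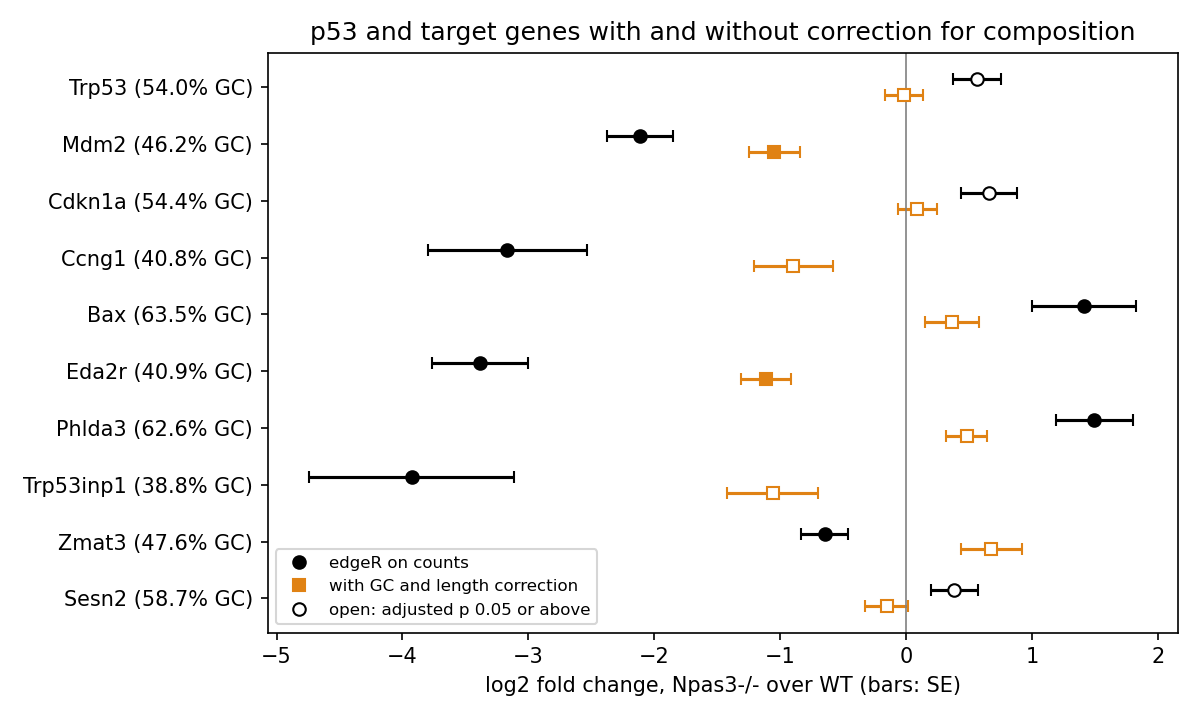
Log2 fold change of Npas3-/- over WT with its SE for the 10 genes, from edgeR on counts (black circles) and with the correction for transcript GC content and length (orange squares), filled where the adjusted p is below 0.05. Black symbols span -3.93 to 1.495, orange ones span -1.11 to 0.68, and only Mdm2 and Eda2r are filled in both.

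The order of the 10 genes followed the GC content of their transcripts. The 5 genes that were lower in Npas3-/- had transcripts of 38.8% to 47.6% GC, and the 5 that were higher had 54.0% to 63.5%. Across the 10 genes Spearman's rho between GC content and log2 fold change was 0.94, given as a description with no p, since genes are not replicates and share the same 4 libraries. The gradient also ran between the 2 libraries within each genotype. The log2 ratio of WT library 2 to WT library 1 ran between 2.38 for Trp53inp1 and -0.74 for Bax (rho -0.90 over the 10 genes), and that of Npas3-/- library 2 to Npas3-/- library 1 between -0.71 for Eda2r and 0.95 for Bax (rho 0.86). After the correction rho with the log2 fold change was 0.71. Set against the median of all tested genes in that fit, Mdm2 (-1.14), Ccng1 (-0.98), Eda2r (-1.20) and Trp53inp1 (-1.15) lay about equally far below, Zmat3 (0.59), Phlda3 (0.39) and Bax (0.28) above, and Trp53 (-0.11), Cdkn1a (0.00) and Sesn2 (-0.24) nearest to it. What the gradient contributes to each gene's difference between genotypes cannot be told apart from the genotype with these libraries.

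**Figure D3:**
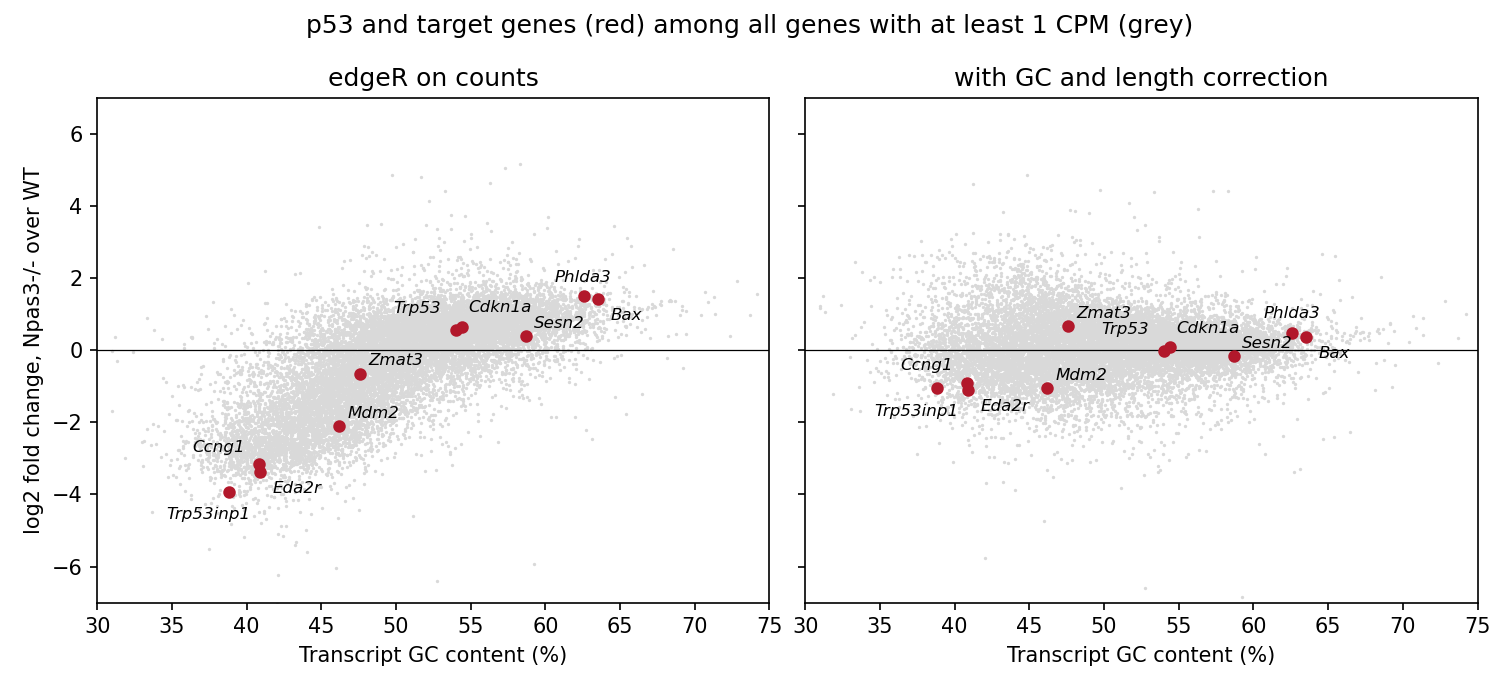
Log2 fold change of Npas3-/- over WT against transcript GC content (%), on counts (left) and in the corrected fit (right), for genes with at least 1 CPM on average (grey) and the p53 set (red). On the left the 10 genes run along the slope of the grey cloud with rho 0.94, and on the right Mdm2, Eda2r, Ccng1 and Trp53inp1 lie near -1.

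Levels of different genes were compared as CPM per kilobase of exon. In Npas3-/- Phlda3 was the most abundant, at 622 ± 208 CPM per kb, and stood clear of Bax (325 ± 146) and Cdkn1a (313 ± 21), which overlapped each other. Then came Sesn2 at 109 ± 3.46, Trp53 at 47.0 ± 0.424, Ccng1 at 20.4 ± 3.78, Zmat3 at 11.2 ± 0.856 and Mdm2 at 6.95 ± 0.494 CPM per kb, each clear of its neighbours. Trp53inp1 (2.55 ± 0.685) and Eda2r (1.80 ± 0.617) were lowest and overlapped. In WT the order was tighter. Phlda3 (221 ± 29.8) overlapped Cdkn1a (199 ± 27.5), Cdkn1a overlapped Ccng1 (183 ± 146) and Ccng1 overlapped Bax (122 ± 43.3). Sesn2 followed, clear of Bax, at 83.5 ± 1.03, and Trp53inp1 (38.8 ± 37.2), Trp53 (31.8 ± 3.53) and Mdm2 (30.1 ± 8.54) overlapped again. Eda2r (18.9 ± 6.15) and Zmat3 (17.6 ± 0.714 CPM per kb) had the lowest means. Values given with ± are means and SD of 2 libraries. Overlaps were read only between neighbours in the order of means. In WT library 1 Trp53inp1 (12.5) lay below Eda2r (14.5) and Zmat3 (18.1), and Ccng1 (79.9) lay below Sesn2 (84.2). By exon length Trp53 and Mdm2 overlapped in WT, and Trp53 stood above Mdm2 in both Npas3-/- libraries. The order depended on the length used. Per kilobase of the longest coding transcript, mean Cdkn1a stood above Phlda3 in WT (339 against 240 CPM). In Npas3-/- its mean stood above that of Bax on that length (535 against 466 CPM), though the libraries of the 2 genes overlapped. Trp53 and Mdm2 then had WT means of 69.0 and 48.6 CPM and did not overlap.

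Ratios of counts within a library do not depend on how libraries are scaled. The log2 ratio of Mdm2 to Trp53 counts was -2.35 and -2.51 in the Npas3-/- libraries and -0.19 and 0.63 in the WT libraries, a difference of -2.65. The ratio of Zmat3 to Trp53 was -0.64 and -0.50 in Npas3-/- and 0.58 and 0.72 in WT, a difference of -1.22. Neither pair of genotypes overlapped. Cdkn1a to Trp53 differed little, at 2.49 and 2.61 in Npas3-/- and 2.48 and 2.42 in WT, a difference of 0.095. Bax to the survival gene Bcl2l1 was 2.103 and 1.71 in Npas3-/- and 1.79 and 1.52 in WT, which overlapped, and Bax to Mcl1 was 0.17 and 0.96 in Npas3-/- and -0.44 and -1.05 in WT, which did not. An exact two-sided permutation test over 2 samples against 2 cannot go below a p of 0.333, and that was the value for 4 of the 5 ratios, with 0.667 for Bax to Bcl2l1. The genes in a ratio differ in GC content, so a ratio still carries the composition gradient.

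**Figure D4:**
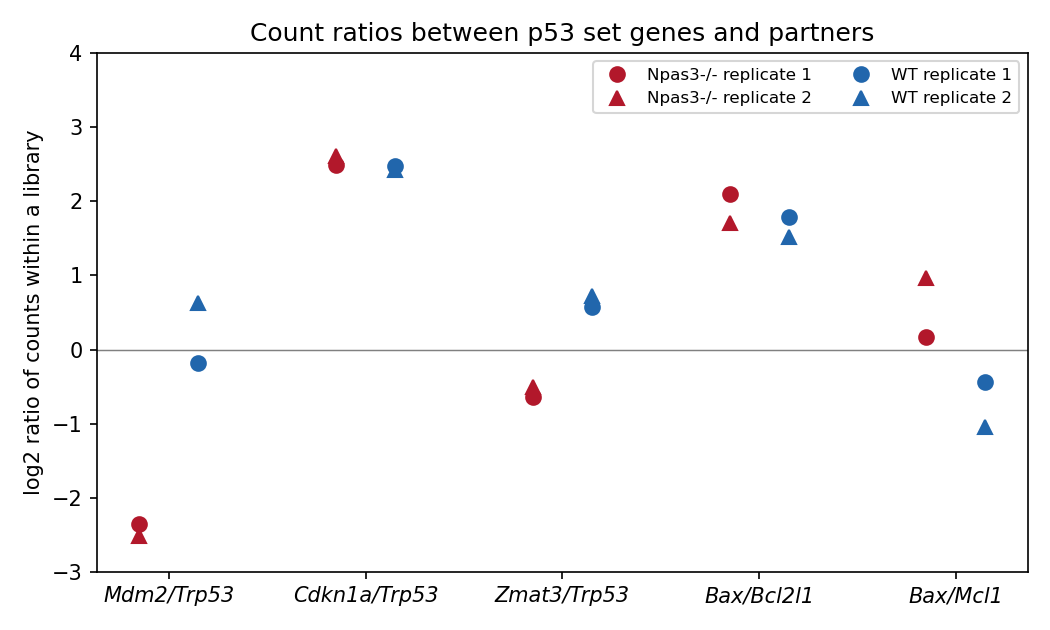
Log2 ratio of counts within each library for 5 pairs of genes, with Npas3-/- libraries in red left of WT libraries in blue. Mdm2/Trp53 lies at -2.35 and -2.51 in Npas3-/- and at -0.19 and 0.63 in WT, while Cdkn1a/Trp53 lies between 2.42 and 2.61 in all 4 libraries.

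Of 43 other known p53 targets, all tested, 4 rose and 9 fell, with a median log2 fold change of 0.11. Beside the backgrounds of 11.6% higher and 21.5% lower this is close to what all tested genes showed. The 4 that rose were Ephx1, a microsomal epoxide hydrolase gene and the most abundant of the list (1309 ± 37.2 CPM in Npas3-/-, 688 ± 11.4 CPM in WT), Dcxr, a carbonyl reductase gene (327 ± 101 and 126 ± 11.1 CPM), Ak1, an adenylate kinase gene (554 ± 91.2 and 309 ± 46.0 CPM), and Tap1, a peptide transporter gene of antigen presentation (122 ± 14.2 and 68.7 ± 6.60 CPM). Among those that fell, Pmaip1, the BH3-only gene of Noxa, had 12.5 ± 0.972 CPM in Npas3-/- and 83.7 ± 21.2 CPM in WT, and the death receptor gene Fas had 15.3 ± 0.800 and 53.8 ± 15.4 CPM. The membrane protein gene Perp had 15.3 ± 0.224 and 52.1 ± 4.91 CPM, and the cytoskeleton gene Ckap2 32.9 ± 5.24 and 139 ± 31.7 CPM. Bbc3, the gene of the BH3-only protein Puma, had a log2 fold change of 0.83 and did not pass (adjusted p = 0.0967 by edgeR). In the corrected fit its value was -0.083 (adjusted p = 0.815 by edgeR).

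With the correction 1 of the 43 rose and 3 fell, at a median of 0.010, beside the backgrounds of 5.71% and 3.08%. The 3 were Perp (-1.40), the thiamine transporter gene Slc19a2 (-1.26) and Pmaip1 (-0.94), at corrected adjusted p by edgeR of 0.0246, 0.0406 and 0.0328. The 1 that rose was Ddit4l, an mTOR inhibitor gene, at 1.00 (adjusted p = 0.0290 by edgeR), which had stood at 0.042 without the correction. Ephx1 (0.39), Fas (-0.49) and Ckap2 (-0.39) did not pass there.

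Of 30 genes that act on p53 (kinases, ligases, acetylases and binding proteins, with the relatives Trp63 and Trp73), 4 rose and 12 fell, with a median log2 fold change of -0.40. Over all tested genes 11.6% rose and 21.5% fell, and 5.71% and 3.08% in the corrected fit. Mdm4, the Mdm2 relative that holds p53 inactive, fell to 8.62 ± 2.36 CPM in Npas3-/-, against 76.9 ± 30.9 CPM in WT, a log2 fold change of -3.16. It moved in the direction of Mdm2 and passed in the corrected fit, at -0.93 (adjusted p = 0.0333 by edgeR). Usp7, the deubiquitinase of Mdm2 and p53, fell to 30.9 ± 6.58 CPM in Npas3-/-, against 93.4 ± 13.3 CPM in WT, and the checkpoint kinase gene Chek1 to 1.06 ± 0.196 CPM, against 6.33 ± 1.76 CPM. Rpl11, a ribosomal protein gene whose product binds Mdm2 under ribosomal stress, rose to 705 ± 116 CPM in Npas3-/-, against 248 ± 31.1 CPM in WT. After the correction 2 rose, Rpl11 (0.85) and its partner Rpl5 (1.72), and 3 fell, Mdm4 and the p53 acetyltransferase genes Crebbp (-1.43) and Ep300 (-1.05), at a median of -0.064. Usp7 was at -0.040 and Chek1 at -0.44 there, neither past the threshold. Rpl5, Bad, Ccnd3, Nprl2, Sesn1, S100b, Aldoc, Slc1a3, Aqp4, Gja1, Slc1a2, Map2, Syt1, Tubb3, Rbfox3, Snap25, Trp63, Crebbp, Ep300, Slc19a2, Ddit4l, Bbc3, Dcxr, Ak1 and Tap1 were named after their values were seen. Counts of Rpl11 and Rpl5 are uncertain, as ribosomal protein genes have many near-identical copies, and Trp63 was near the limit of detection, with 2 and 14 counts in Npas3-/- and 0 and 36 in WT.

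**Figure D5:**
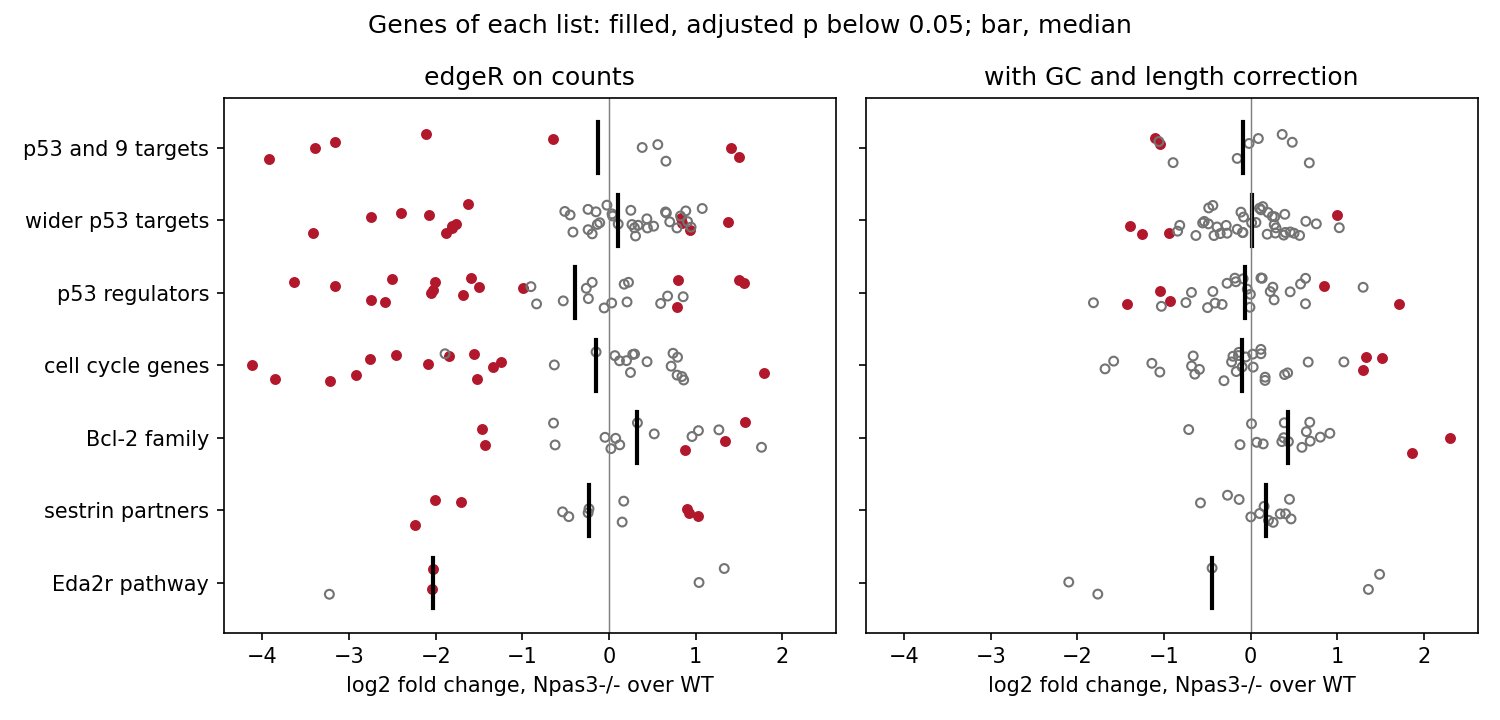
Log2 fold change of Npas3-/- over WT for each tested gene of the p53 set and 6 related lists, on counts (left) and in the corrected fit (right), filled where the adjusted p is below 0.05, with a bar at the list's median. On the left the wider targets have 4 filled points above 0 and 9 below, and on the right 1 and 3.

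Genes with a profile over the 4 libraries most like that of a p53 gene were also sought. The measure was the Euclidean distance of log2 CPM centred on each gene's mean. The search covered 11070 genes with at least 5 CPM on average, leaving out symbols that are model or clone names. For Trp53 the nearest were Tmem14a (0.0186), Surf4 (0.0201) and Ube2o (0.0237). For Cdkn1a they were Rrp8 (0.0167), Ccdc189 (0.0220) and Tecpr1 (0.0236), and for Mdm2 Srsf11 (0.0257), Plcl1 (0.0458) and Fem1c (0.0666). These 3 genes were searched, and no gene of the p53 set was among the 3 nearest of any of them. With only 3 neighbours kept from 11070 genes, this cannot show whether the genes of the set vary together.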

How the data were processed

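The build mm10 and the tools HISAT2 2.1.0, Trimmomatic 0.3.8 and featureCounts come from the submitters' processing notes. The authors deposited raw counts per gene, 1 column per sample. Not given in the sources used here are the annotation release, strand setting and handling of shared reads, so counts are uncertain for named genes that share exon bases with others (Bax, Cdkn1a, Bcl2, Bak1, Bad, Diablo, Ccnd1, Ccnd3, Cdk6, Ephx1, Tap1, Ep300, Rpl5, Seh1l, Trp73, Npas3). Genes of the cell type marker lists were not checked for shared exon bases. Symbols, places and lengths came from GENCODE M21 on mm10, which held 50604 identifiers with and 2670 without their version, of 53379.

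Counts were tested with edgeR 4.0.16 (R 4.3.3): TMM, filterByExpr at a minimum count of 10, quasi-likelihood test, 2 residual degrees of freedom, Benjamini-Hochberg threshold 0.05. The SE is the log2 fold change over the square root of F. The corrected fit added, per library, natural splines (6 degrees of freedom each) of GC content and log2 length of the longest coding transcript as an offset. Log2 CPM had a pseudocount of 2. The tests were also run on simulated data. Any GC trend there was the same in both Npas3-/- libraries, so those runs do not cover the gradient seen here within each genotype. The p53 set, the gene lists and the correction were chosen with earlier results of these data known. Named were the set, Npas3, and in each list the 4 smallest p-values and the most abundant gene, and the most abundant of each marker list, apart from 1 gene that is not reported here. The planned search for p53 sites within 5 kb of gene starts was replaced by RefSeq promoter windows. Alternatives were DESeq2 1.42.0, its size factors, 2 filters, replicate blocks, leaving out each sample and, for levels, transcript length.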

Additional observations from a re-analysis of the deposited data

How the results depend on the processing

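Of the calls in the p53 set, 2 higher and 5 lower, edgeR gave the same counts with DESeq2 size factors and with a filter of 5 CPM on average. Higher calls numbered 1 with no filter on low counts, 4 with DESeq2 and 0 with the correction, and lower calls 2 with the correction. Of the wider targets, 4 higher and 9 lower, higher calls numbered 2 with no filter, 10 with DESeq2 and 1 with the correction, and lower calls 3 with the correction. The labels share replicate numbers without saying that they pair samples, and same-numbered deviations from the genotype means correlated at -0.156. With the replicate number as a block 1 gene of the set was higher and 4 lower, and 0 and 8 of the wider targets. The block with the correction gave 0 higher and 1 lower, and 1 and 2 of the wider targets. A crossed replicate block, chosen after seeing the data, gave 4 and 5, and 9 and 9. Leaving out each sample gave 0 to 2 higher and 0 to 4 lower in the set, and 0 to 6 and 0 to 9 of the wider targets. Of the regulators (4 and 12) it gave 0 to 2 higher and 0 to 11 lower, against 1 to 6 and 1 to 13 under the other alternatives, of the cell cycle genes (1 and 12) 0 to 7 and 0 to 13, against 0 to 4 and 0 to 14, and of the Bax relatives (3 and 2) 0 to 3 and 0 to 2, against 1 to 5 and 0 to 2. These alternatives were not run for the sestrin and receptor lists as counts. Over all genes 6232 were called, against 3997 with no filter, 1656 with the correction, 2560 with the block and 1139 with both, and 0 to 5832 without 1 sample. With the correction edgeR called 0 genes without Npas3-/- library 1 and 0 without library 2 (4471 and 3683 at an unadjusted p below 0.05), and DESeq2 2036 and 1251.

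Signs were compared for the set, Npas3 and the genes named from the lists by p-value or abundance, marker lists aside. Among them signs turned with the correction, and with the correction and block, for Zmat3 (0.68 and 0.65), Trp53 (-0.019 and -0.021), Sesn2 (-0.16 and -0.16), Bcl2 (0.14 and 0.15), Seh1l (0.21 and 0.22) and Sesn3 (0.0010 and 0.022), and the cause was not tested. Other named genes were not in this comparison. Some of them also turned with the correction, among them Cdkn1b (-0.63 to 1.30), Cycs (-0.046 to 1.87) and Bbc3 (0.83 to -0.083). Leaving out each sample, with and without the correction, gave log2 fold changes between -0.72 and 0.95 for Zmat3, -0.022 and 0.66 for Trp53, -0.26 and 0.44 for Sesn2, -1.63 and 0.22 for Bcl2, -1.97 and 0.46 for Seh1l and -2.45 and 0.25 for Sesn3. It also turned the sign of Cdk6 (-2.44 to 0.12), Usp7 (-1.84 to 0.039), Ccnd1 (-0.014 to 0.83) and Mcl1 (-0.0040 to 0.73). Per kilobase of the longest coding transcript Trp53 stood at 102 CPM in Npas3-/- and 69.0 in WT. Depth did not limit the set, whose lowest count was 619.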
